A study of Zea mays with 10 samples.

Results

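Small RNA of the maize line id1 (genotype P1-wwid1) was set against that of the inbred B73 in leaf and root, over all 10 chromosomes. The 4 libraries concerned, out of 10 in the series, were picked by line and tissue: id1 leaf, id1 root, B73 leaf and B73 root, 1 library each, from seedlings 14 days old. The id4 (P1-wwid4) and 9d9a (P1-vv9d9a) libraries of leaf and root entered the same model, to give an estimate of the spread between libraries and a second yardstick for id1. All plants grew in 1 type of growth chamber under the same light cycle. The titles name leaf, whereas the tissue label of those samples reads seedling. The labels give no copy number for p1 or any other segment, no background in which the alleles are carried, and no number of plants per library.

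Most plant small RNAs are short interfering RNAs cut from transcripts of transposons and other repeats, and they guide DNA methylation back to such sequences. MicroRNAs and RNAs that arise from single loci make up the rest. On chromosome 1, p1 codes for a Myb-type transcription factor that switches on red phlobaphene pigments in floral tissues, and its alleles are named by pericarp and cob colour. B73 is the inbred whose sequence serves as the maize reference genome. The series asks whether the amount of small RNA follows the copy number of a chromosome segment. No sequences or genes are given here, since the files hold read counts per 100 kb window; the sources used here do not state the build of their coordinates, so no window was assigned to a gene, exon or intron. A window is named by its start on the deposited coordinates and extends 0.1 Mb beyond it.

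The libraries held 10017497 reads in id1 leaf and 11260138 in id1 root, against 18396214 in B73 leaf and 12160298 in B73 root. The median window had 271 and 306.5 reads in id1 leaf and root, against 506 and 335 in B73 leaf and root, so counting error alone was 6.07% and 5.71% in id1, and 4.45% and 5.46% in B73. Reads fell in 20584 windows, of which 20386 had enough reads to be tested. Levels are given as CPM, read counts per 1000000 reads of the TMM-scaled library. No marker gene could be looked up in window counts, so the tissue labels were not checked. In tissue samples such as these, fewer cells making a small RNA and less of it per cell cannot be told apart.

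Small RNA fell in id1 over long stretches of chromosomes 1, 2 and 10, and rose by about 2-fold over 3 Mb of chromosome 1 beside p1. Elsewhere it differed in many single windows and in further stretches, most of all on chromosome 1. In edgeR's quasi-likelihood test with Benjamini-Hochberg adjustment, 395 windows rose and 729 fell in id1 relative to B73, which is 5.51% of the 20386 tested (1.94% higher, 3.58% lower). The 729 windows that fell had a median log2 change of -1.27, and 431 of them changed by more than 2-fold. The 395 windows that rose had a median of 0.59, and 84 exceeded 2-fold. Each of the 1124 had the same direction in leaf and in root. Since a line has 1 library per tissue, the test measures the part of the line difference shared by leaf and root. It is set against the spread that line and tissue leave over in these 8 libraries.

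Chromosome 1 held 594 of the called windows, 147 higher and 447 lower, or 19.9% of its windows. Chromosome 2 had 34 higher and 100 lower (5.69% called), chromosome 10 had 19 and 59 (5.25%), and chromosome 6 had 57 and 33 (5.36%). These 3 shares were near the 5.51% called over all windows tested. On chromosome 5, 1.48% of windows were called (17 higher, 15 lower), the lowest share. Despite this, the median ratio of id1 to B73 over whole chromosomes lay between -0.02 and 0.04 on the log2 scale in both tissues.

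**Figure D1:**
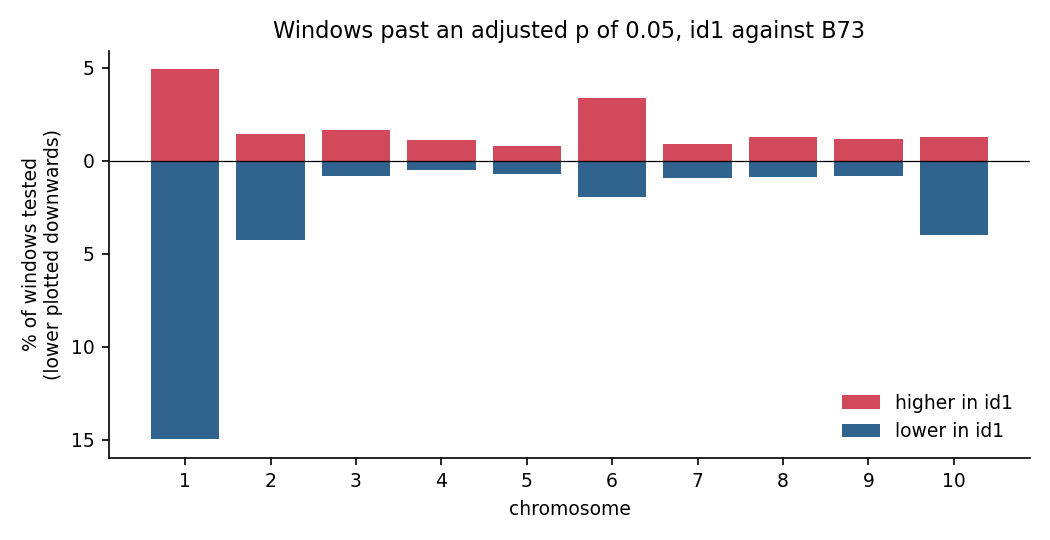
Share of the tested windows of each chromosome (%) that rose in id1 relative to B73 (red, upwards) or fell (blue, downwards), by an adjusted p under 0.05. Chromosome 1 stands out with 4.93% higher and 14.99% lower, and chromosomes 2 and 10 follow for lower windows with 4.25% and 3.97%.

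Windows that rose mostly stood alone, and those that fell mostly had a neighbour that fell. Of the 729 lower windows, 223 (30.6%) stood alone and 426 sat in runs of 3 or more, the longest being 19 windows from 80.3 to 82.2 Mb of chromosome 1. Of the 395 higher windows, 328 (83.0%) stood alone. Their longest run was 8 windows from 48.6 to 49.4 Mb of chromosome 1. The number of higher windows depended on single libraries: it was 177 without id1 leaf, 184 without id1 root and 233 without B73 leaf. The number of lower windows stayed between 568 and 743 with any 1 library left out. With no tissue term 71 windows rose and 398 fell, and with the id1 and B73 libraries alone 1032 rose and 1205 fell.

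The region of higher small RNA lay from 48 to 51 Mb of chromosome 1, close to the approximate position of p1, which the files do not mark. It was known from earlier results of these data, so what follows describes it. In units of 1 Mb, its 3 intervals were the only ones of 2059 in the genome whose median log2 ratio of id1 to B73 reached 0.5 in leaf and in root. The leaf and root medians were 1.01 and 1.04 for the first interval, 1.06 and 0.89 for the second, and 0.92 and 0.73 for the third. Over all 30 windows the median was 1.0 in leaf (95% rank interval 0.84 to 1.12) and 0.95 in root (0.75 to 1.05). These intervals treat windows as independent and do not cover the spread between libraries. The segment took 0.423% of the reads of id1 leaf and 0.328% of id1 root, against 0.146% of B73 leaf and 0.167% of B73 root. Without the 3 windows at a log2 change of 2 or more, the shares were 0.209% of id1 leaf and 0.230% of id1 root, against 0.134% of B73 leaf and 0.159% of B73 root.

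Of the 29 tested windows of the segment, 23 rose and 2 fell. The log2 change lay between 0.75 and 1.25 in 18 of the 29, and over all 29 it ranged from -4.08 to 5.19. The standard deviation of the log2 ratio over the segment was 1.48 in leaf and 1.47 in root. Of the 23 windows that rose, 20 had a log2 change from 0.82 to 1.41. At 49.0 Mb, for example, id1 leaf and root had 88.3 and 86.1 CPM, against 40.2 and 43.9 CPM in B73 leaf and root, a log2 change of 1.05 ± 0.10 (SE; adjusted p = 2.08e-06, edgeR). At 49.8 Mb, a more abundant window, id1 had 295 CPM in leaf and 351 CPM in root, against 131 and 214 CPM in B73. In each of these windows both id1 libraries exceeded both B73 libraries, but the second lost its call with no tissue term (log2 0.91, adjusted p = 0.222, edgeR).

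The other 3 windows that rose did so by far more than 2-fold. In the window that starts at base 48100001, id1 had 1273 CPM in leaf and 497 CPM in root, against 24.3 and 20.3 CPM in B73, a log2 change of 5.19 ± 0.32 (adjusted p = 0.000334, edgeR). The line id4 was also high there, with 959 CPM in leaf and 480 CPM in root, while 9d9a had 33.9 and 25.6 CPM. The test at this window rested on the other lines' libraries, since with the id1 and B73 libraries alone the log2 change was 5.21 but the adjusted p was 0.304. In the first window, at 48 Mb, id1 had 80.1 and 112 CPM in leaf and root, against 11.2 and 9.67 CPM in B73, with id4 (70.0 and 64.1) and 9d9a (33.5 and 32.4) also above B73. At 50.1 Mb, in contrast, id1 stood apart from all 3 lines, with 785 and 362 CPM in id1 leaf and root, 72.1 and 57.6 CPM in id4, 88.7 and 58.7 CPM in 9d9a, and 88.0 and 57.2 CPM in B73. Its log2 change was 2.93 ± 0.16 against B73 and 2.98 ± 0.13 against the mean of id4 and 9d9a.

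The windows of the segment that did not rise against B73 included some with little small RNA in all 3 p1 lines. At 50.6 Mb id1 had 13.3 CPM in leaf and 12.0 CPM in root, against 195 and 232 CPM in B73, a log2 change of -4.08 ± 0.13. Still lower values were found in id4 (7.47 and 6.33 CPM) and 9d9a (7.06 and 6.61 CPM). At 50.8 Mb the log2 change against B73 was -1.34 ± 0.12, and against the mean of id4 and 9d9a it was 1.27 ± 0.12. The windows at 48.5, 49.4, 49.6 and 50.4 Mb did not pass the test against B73 (log2 -0.11, -0.46, 0.38 and -0.30), and the window at 50.5 Mb had too few reads to be tested. With the id1 and B73 libraries alone, those at 49.4, 49.6 and 50.4 Mb passed (adjusted p = 0.000441, 4.86e-05 and 0.0482, edgeR). The window at 49.4 Mb also passed without B73 leaf (log2 -0.81), and that at 49.6 Mb without B73 root (0.64) or id4 root (0.38).

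Set against the mean of id4 and 9d9a, the segment was more even. By this contrast 822 windows rose and 758 fell genome-wide in id1, 7.75% of those tested (4.03% higher, 3.72% lower), and in the segment 28 of 29 rose and none fell. Genome-wide, 447 windows rose without id1 leaf and 377 without id1 root, and with no tissue term 176 rose and 345 fell. The exception was 50.4 Mb, at 0.38 (adjusted p = 0.189, edgeR). The median log2 difference was 1.0, with a range of 0.38 to 2.98, and all windows except that at base 48100001 and that at 50.1 Mb lay at 1.28 or below. The medians of the other lines over B73 in these windows were -0.01 in leaf and -0.02 in root for id4, and -0.03 and -0.02 for 9d9a. They hide a rise that id4 shared at the left end of the segment. In the interval from 48 to 49 Mb the id4 medians were 0.40 in leaf and 0.63 in root. In the next 2 intervals they lay between -0.20 and -0.04. At 48.3 Mb id4 leaf and root had 84.6 and 81.0 CPM, near the 83.9 and 85.4 CPM of id1. Both contrasts use the same id1 libraries and are not independent of each other.

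The edges of the segment were abrupt on the left and less so on the right. The windows at 47.6, 47.7 and 47.8 Mb fell in id1, with log2 changes of -4.03, -2.12 and -4.28 against B73, and 47.9 Mb fell by 0.69. The call at 47.9 Mb was lost with no tissue term, without B73 root and without id1 root (adjusted p = 0.166, 0.0749 and 0.189, edgeR). None of these 4 windows differed from the mean of id4 and 9d9a by the test. On the right, the window at 50.9 Mb rose by 1.24 and that at 51 Mb did not pass the test (-0.21; adjusted p = 0.0444 with the id1 and B73 libraries alone, edgeR), with 92.0 and 137 CPM in id1 leaf and root against 107 and 158 CPM in B73. Against the mean of id4 and 9d9a, the window at 51 Mb was still higher by 1.01, and 51.3 Mb by 1.48 although it fell by 0.82 against B73, a call lost with no tissue term (adjusted p = 0.445, edgeR). A very abundant window at 51.2 Mb had 2975 CPM in id1 leaf and 1086 CPM in id1 root, against 2443 and 275.5 CPM in B73, and its log2 change of 1.10 ± 0.43 did not pass the test (adjusted p = 0.341, edgeR). It passed without B73 leaf (log2 1.78, adjusted p = 0.00115) and without id1 leaf (log2 1.59, adjusted p = 0.0311).

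**Figure D2:**
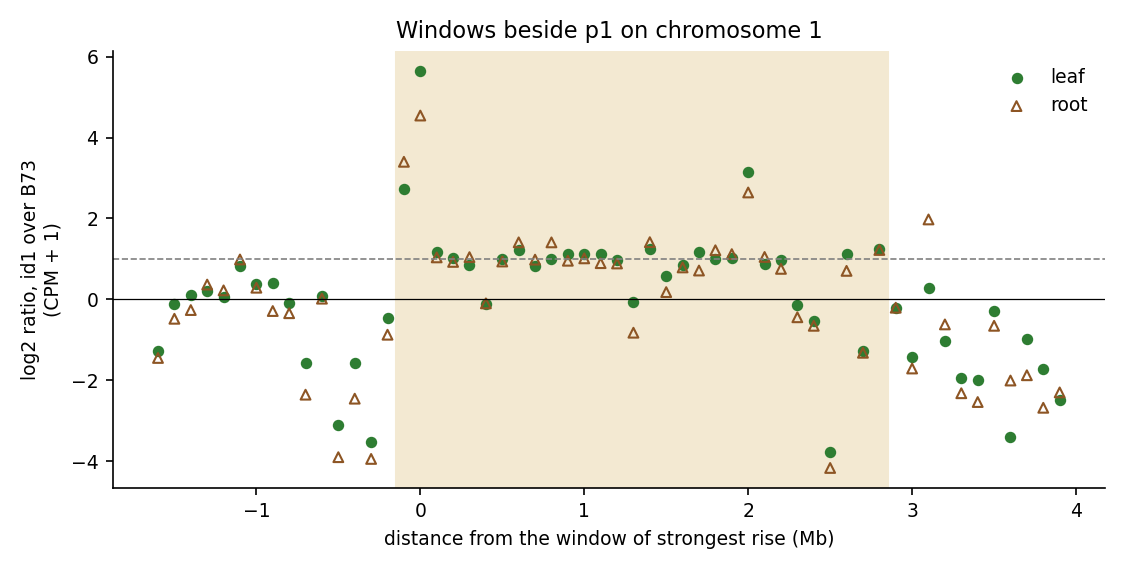
Log2 ratio of id1 to B73 per 100 kb window in leaf (filled circles) and root (open triangles), by distance in Mb from the window of strongest rise; the 3 Mb segment is shaded, and the dashed line marks a 2-fold rise. Most windows of the segment lie near the dashed line in both tissues, with median ratios of 1.0 in leaf and 0.95 in root.

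Beyond the segment, id1 had less small RNA than B73 over 10 blocks that add up to 48 Mb. They were found as runs of at least 3 intervals of 1 Mb whose median log2 ratio did not exceed -0.5 in leaf or in root, so their medians and counts describe that choice. Chromosome 1 held 6 blocks (32 Mb), chromosome 2 had 3 (11 Mb) and chromosome 10 had 1 (5 Mb). In the 480 windows the median ratio was -1.22 in leaf and -1.15 in root, the median window held 12.9 CPM in id1 leaf and 12.8 CPM in id1 root against 39.0 CPM in B73 leaf and 42.2 CPM in B73 root, and the blocks took 2.01% and 1.58% of the reads in id1 leaf and root, against 3.73% and 3.17% in B73. Of 476 tested windows, 360 fell and 14 rose. The isolated interval at 227 Mb of chromosome 1 lay just inside the threshold (-0.54 in leaf, -0.53 in root) but in no block, and that at 41 Mb just outside it (-0.49 and -1.11).

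Within the blocks the loss was uneven from window to window. The standard deviation of the log2 ratio was 1.31 (leaf) and 1.35 (root), compared with 0.325 and 0.342 for windows outside the blocks and the segment. In 122 of the 478 windows with enough reads (25.5%), the log2 ratio was -2 or less in both tissues, while 40 (8.37%) lay within 0.3 of 0 in both. As an example, in the block from 56 to 61 Mb of chromosome 1, the window at 60.4 Mb had 1.79 and 1.49 CPM in id1 leaf and root against 60.1 and 49.5 CPM in B73, and that at 57.6 Mb had 7.07 and 5.27 CPM against 3.83 and 4.10 CPM. The first fell by 5.05 on the log2 scale, and the second did not pass the test (0.64, adjusted p = 0.114, edgeR) unless the fit held the id1 and B73 libraries alone (adjusted p = 0.0425).

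The blocks nearest p1 were low in other p1 lines as well. From 29 to 32 Mb of chromosome 1 the leaf and root medians over B73 were -1.23 and -1.17 in id1, -0.39 and -0.58 in id4, and -1.11 and -1.22 in 9d9a. From 34 to 40 Mb they were -1.37 and -1.67 in id1, -0.61 and -0.80 in id4, and -1.64 and -1.56 in 9d9a. To the right of the segment 9d9a was low at first and then lay close to B73. From 51 to 55 Mb the medians were -2.0 and -2.18 in id1, -1.91 and -2.08 in id4, and -0.22 and -0.54 in 9d9a. Within this block 9d9a was at -1.77 and -2.26 from 51 to 52 Mb, and at -1.75 and -1.94 from 52 to 53 Mb. It was at -0.05 and -0.19 from 53 to 54 Mb, and at 0.16 and -0.02 from 54 to 55 Mb. From 56 to 61 Mb the medians were -1.19 and -1.03 in id1, -0.83 and -0.78 in id4, and 0.11 and 0.04 in 9d9a. The ratios of the 3 lines share the B73 libraries.

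In the blocks farther from p1, id4 and 9d9a stayed closer to B73 than id1 did. Outside the blocks this did not always hold. From 225 to 230 Mb of chromosome 1 the leaf and root medians were -0.62 and -0.58 in 9d9a, -0.47 and -0.43 in id1, and 0.12 and 0.07 in id4. From 76 to 87 Mb of chromosome 1, the longest block, the median was -1.58 in leaf and -1.50 in root in id1, -0.44 and -0.42 in id4, and 0.11 and 0.09 in 9d9a. There 88 of 109 tested windows fell against B73 and 87 of 109 against the mean of id4 and 9d9a. The root median of this block was -1.84 with a pseudocount of 0.25 CPM in place of 1. The 3 blocks of chromosome 2 had medians of -0.93 and -1.14 (224 to 227 Mb), -1.19 and -1.05 (228 to 233 Mb) and -1.36 and -1.18 (234 to 237 Mb) in id1 leaf and root, with id4 and 9d9a between -0.08 and 0.08. The block from 141 to 146 Mb of chromosome 10 was at -0.94 and -0.91 in id1, 0.01 and 0.08 in id4, and 0.04 and 0.12 in 9d9a. In the chromosome 10 block 41 of 50 windows were lower than the mean of id4 and 9d9a by the test.

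One block was shallow and even. From 221 to 224 Mb of chromosome 1 the median was -0.69 in leaf and -0.68 in root, with quartiles of -0.80 and -0.51 in leaf, and no window reached -2 in both tissues. There 23 of 30 windows fell against B73 and 27 of 30 against the mean of id4 and 9d9a. At 221.4 Mb id1 leaf and root had 46.2 and 33.7 CPM, against 83.2 and 75.5 CPM in B73, and id4 and 9d9a were between 83.2 and 95.7 CPM. The log2 change at 221.4 Mb was -0.997 ± 0.13.

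**Figure D3:**
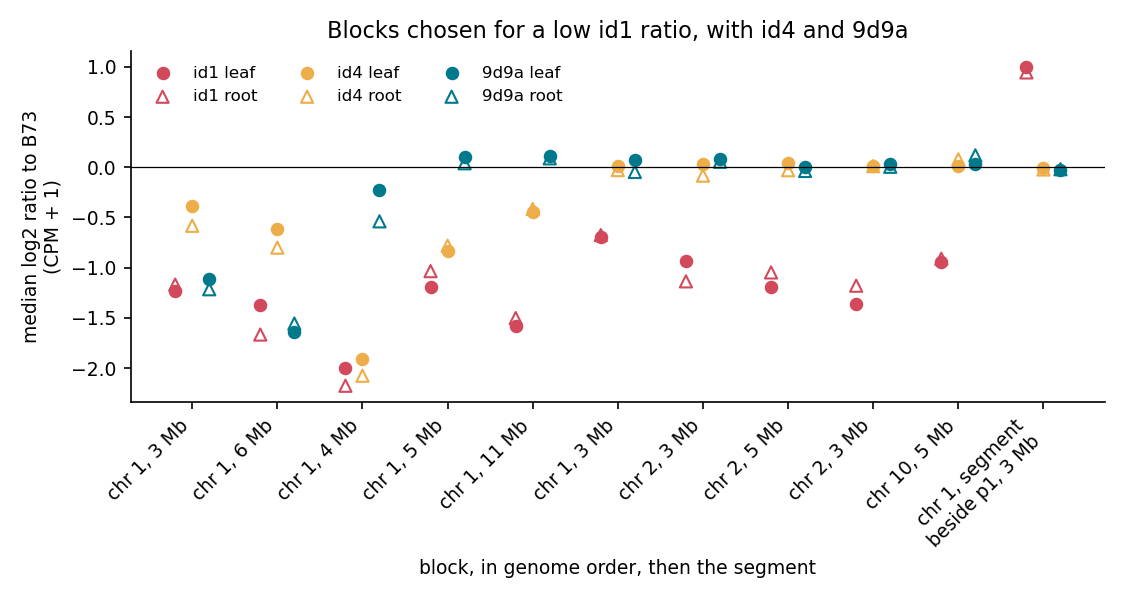
Median log2 ratio to B73 in each of the 10 low blocks, in genome order, and in the segment beside p1, for id1, id4 and 9d9a in leaf (filled circles) and root (open triangles). In the chromosome 2 blocks the id4 and 9d9a medians lie between -0.08 and 0.08, while those of id1 lie between -1.36 and -0.93.

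In a few windows id1 had almost no small RNA. Under 0.5 CPM in both id1 libraries and over 10 CPM in both B73 libraries was found in 7 windows, 6 on chromosome 1 and 1 on chromosome 2, 4 of them inside the blocks. No window had the opposite pattern, but sequence of id1 that the reference coordinates lack would have no window of its own. The largest fall was at 53.5 Mb of chromosome 1, with 2 reads in id1 leaf and 4 in id1 root, against 1212 and 609 reads in B73. The ratio of id1 to B73 in leaf was 0.00304 (exact 95% interval 0.000368 to 0.011), and the line 9d9a had 604 and 670 reads and id4 had 20 and 36. This interval, like the others on reads, covers counting error only. The chromosome 2 window at 227.9 Mb had 2 and 1 reads in id1 leaf and root, against 480 and 402 in B73, with 246 and 243 in id4 and 267 and 295 in 9d9a.

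Windows with more small RNA in id1 were found on every chromosome, mostly as single windows. The largest rise was at 233.8 Mb of chromosome 2, between 2 of the low blocks, with 710 CPM in id1 leaf and 737 CPM in id1 root, against 6.48 and 5.49 CPM in B73, a log2 change of 6.92 ± 0.21 (adjusted p = 6.10e-09, edgeR). Neither id4 (9.75 and 9.35 CPM) nor 9d9a (9.06 and 4.28 CPM) was high there. The chromosome 1 window at 179.4 Mb held 50.1 and 48.6 CPM in id1 leaf and root, against 1.67 and 1.56 CPM in B73 (log2 4.91 ± 0.18), and id4 and 9d9a were between 1.04 and 1.77 CPM. At 176.7 Mb of chromosome 7 id1 had more in leaf than in root, with 47.2 CPM and 12.4 CPM, against 1.30 and 1.23 CPM in B73 (log2 4.53 ± 0.45). In these 3 windows both id1 libraries stood far above all the libraries of the other lines.

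Smaller rises of the same kind were seen on other chromosomes. The chromosome 6 window at 32.2 Mb held 19.6 CPM in id1 leaf and 19.8 CPM in id1 root, against 2.0 and 1.97 CPM in B73 (log2 3.30 ± 0.19). On chromosome 9, the window at 78.9 Mb held 35.4 and 55.2 CPM in id1, against 4.26 and 5.0 CPM in B73 (3.26 ± 0.18). On chromosome 4, the window at 65.8 Mb held 87.9 and 75.2 CPM in id1, against 18.1 and 13.1 CPM in B73 (2.40 ± 0.12). These windows also rose against the mean of id4 and 9d9a, by 3.18, 2.94 and 2.56 on the log2 scale.

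In some windows the line that stood apart was B73. In the chromosome 8 window at 67.4 Mb, id1 leaf and root held 63.0 and 83.1 CPM, id4 had 55.3 and 63.2 CPM and 9d9a had 60.1 and 54 CPM, against 7.12 and 6.72 CPM in B73. The log2 change of id1 was 3.38 ± 0.15 against B73 and 0.33 against the mean of id4 and 9d9a, and the second did not pass the test (adjusted p = 0.0885, edgeR). Likewise, the chromosome 10 window at 125.3 Mb held 158 and 223 CPM in id1, against 73.2 and 85.4 CPM in B73, with id4 at 146 and 194 CPM and 9d9a at 160 and 209.6 CPM. Here too the difference of id1 from the mean of id4 and 9d9a (0.10) did not pass the test.

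Windows that fell outside the blocks were found on every chromosome too. The chromosome 9 window at 153.5 Mb held 37.1 CPM in id1 leaf and 35.9 CPM in id1 root, against 285 and 217 CPM in B73 (log2 -2.77 ± 0.11), while id4 and 9d9a had between 229 and 257.5 CPM. On chromosome 5, the window at 194.9 Mb held 12.6 and 14.9 CPM in id1, against 101 and 192 CPM in B73 (-3.37 ± 0.16), and the levels were intermediate in id4 (38.6 and 73.5 CPM) and 9d9a (35.8 and 75 CPM). On chromosome 1, the window at 63.8 Mb had 0.995 and 0.527 CPM in id1, against 57.0 and 81.5 CPM in B73, and that at 41.4 Mb had 41.2 and 41.1 CPM against 277 and 318 CPM. At 41.4 Mb 9d9a was as low as id1, with 43.1 and 40.9 CPM. Within the blocks, 144.8 Mb of chromosome 10 had 5.08 and 4.13 CPM in id1, against 124.8 and 102 CPM in B73 (-4.62 ± 0.14).

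Outside the blocks and the segment 358 windows rose and 367 fell, 3.65% of the 19881 tested. Chromosome 1 held 116 of the higher and 196 of the lower ones, 11.8% of its tested windows there. On the other chromosomes the share was 1.48% to 5.36%. From 70 to 75 Mb of chromosome 1, picked after its values were seen, 25 of 48 tested windows fell and 3 rose. The number of windows called outside the blocks and the segment depended on the model and on single libraries. With no tissue term there were 51 higher and 135 lower windows, and with the id1 and B73 libraries alone 993 and 816. Without id1 leaf there were 142 higher and 243 lower windows, without id1 root 151 and 241, and without B73 leaf 199 and 328. In 70.3% of these windows the log2 ratio lay within 0.3 of 0 in both tissues. The share of windows called over the genome was 2.74% in the least-read of 4 equal groups of windows (median 35.75 reads) and 6.07% to 6.63% in the others, so fewer calls were made where reads were few. The most-read window of all 4 libraries, at 96.1 Mb of chromosome 6, had 26046 CPM in id1 leaf and 11741 CPM in id1 root, against 16763 and 5404 CPM in B73. It did not pass the test (log2 0.85 ± 0.40, adjusted p = 0.362, edgeR). With the id1 and B73 libraries alone, a fit with 1 residual degree of freedom, it did (0.87, adjusted p = 2.50e-07, edgeR).

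The ratios of id1 to B73 in leaf and root went together. Across the 20524 windows with enough reads, the log2 ratio in leaf and that in root had a Pearson correlation of 0.80. It was 0.94 in the 478 windows of the blocks, 0.97 in the 30 of the segment and 0.65 in the 20016 others. These are correlations across windows of the same 4 libraries, and windows are not independent replicates. The blocks were chosen for low ratios in both tissues and the segment from earlier results, so their correlations partly describe that choice. Of the 441 windows at least 2-fold lower in id1 leaf than in B73 leaf, 438 were also lower in root and 369 at least 2-fold lower. The blocks held 272 of the 441. Of the 90 windows at least 2-fold higher in leaf, 86 were higher in root and 62 at least 2-fold.

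**Figure D4:**
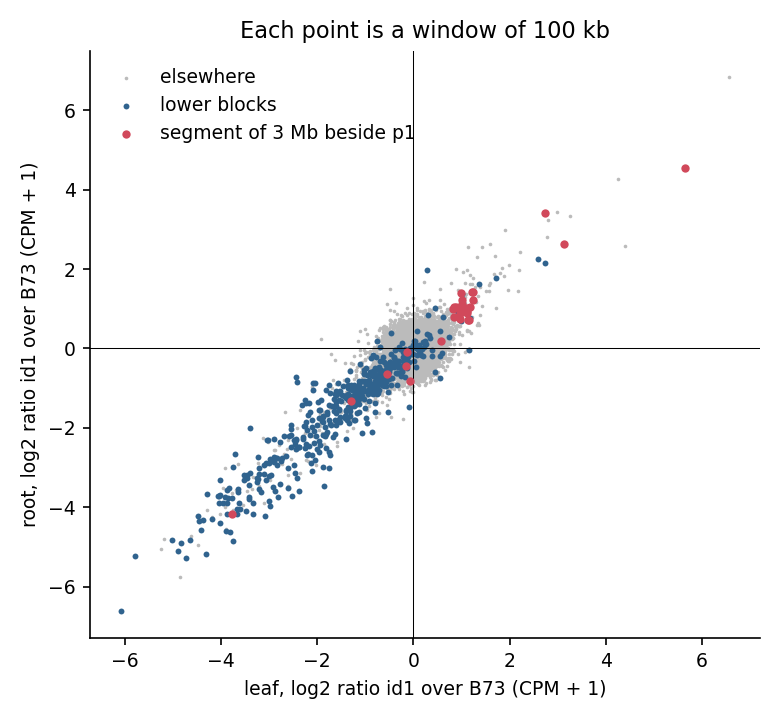
Log2 ratio of id1 to B73 in leaf (horizontal) and root (vertical), 1 point per 100 kb window, with the low blocks in blue, the segment beside p1 in red and all other windows in grey. Of 441 windows at least 2-fold lower in leaf, 438 lie below 0 in root as well.

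In a few windows the difference between leaf and root in id1 departed from that in the other lines. A model with an id1-by-root term (2 residual degrees of freedom), which sets the leaf to root difference of id1 against that of the other 3 lines, called 2 windows, 0.00977% of those tested, with edgeR and Benjamini-Hochberg adjustment. DESeq2 called 3. With edgeR, 510 of the 20466 windows tested had an unadjusted p under 0.05, a share that is itself below 0.05. The chromosome 2 window at 224.1 Mb, near the edge of a low block, held 27.1 CPM in id1 leaf and 82.5 CPM in id1 root, against 114 and 152 CPM in B73, 128 and 145 CPM in id4, and 134.3 and 168 CPM in 9d9a. The term was 1.30 ± 0.18 on the log2 scale (adjusted p = 0.0220, edgeR), id1 lying farther below B73 in leaf than in root. The chromosome 9 window at 44.1 Mb held 59.8 CPM in id1 leaf and 190 CPM in id1 root, against 51.3 and 59.2 CPM in B73, 198 and 177 CPM in id4, and 56.0 and 67.5 CPM in 9d9a. Here the term was 1.58 ± 0.19 (adjusted p = 0.0108, edgeR), id1 leaf lying near B73 and 9d9a and id1 root near id4.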

How the data were processed

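Small RNA reads of 10 libraries were deposited as counts per 100 kb window, per the file headers. The submitters' processing notes name Bowtie. The sources used here do not give its version, its settings, the genome build, the lengths of the reads or how reads with several matches were handled. A window's count can also depend on how well a line's sequence matches the reference, which was not tested. Windows not listed were taken as 0.

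The counts of 8 libraries (id1, id4, 9d9a and B73, each in leaf and root) were tested in edgeR 4.0.16 under R 4.3.3 with TMM scaling (factors 0.952 to 1.02), the default filter on low counts, terms for line and tissue, robust quasi-likelihood fits with 3 residual degrees of freedom and Benjamini-Hochberg adjustment at 0.05. The SE was derived from the F statistic and can be smaller than counting error where reads are few. Line and tissue have 1 library each and the labels name no separate plants. The p-values therefore rest only on the spread that the line and tissue terms leave over in these 8 libraries. That spread mixes line differences that depend on tissue, in any of the 4 lines, with differences between libraries, which may be technical. Regional medians are of log2((CPM + 1)/(CPM + 1)) over windows that averaged 5 reads or more in the 4 id1 and B73 libraries, with 95% intervals from ranks. Windows of a library are not replicates, so these intervals describe the spread over windows and not that between libraries. In a simulation on 20322 windows for id1 against B73, 45 of 50 windows changed by 1 on the log2 scale were called in each direction, with 21 false calls. The same run held 50 windows changed by 3 in each direction, all of them called. Its libraries had no difference between leaf and root, and none between lines apart from the changed windows of id1. These rates therefore need not hold for the real libraries.

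Named windows were the 10 highest and 10 lowest called with at least 10 reads on average and the same direction in both tissues, the highest and lowest of each chromosome and of each block, the 10 with the largest CPM difference, those around the segment and those called for the id1-by-root term. The most-read window was added after its values were seen. The regions, lists and windows were chosen with earlier results of these data known. Alternatives were library totals, DESeq2 1.42.0, no filter, fewer libraries, no tissue term, B73 leaf thinned to the total of id1 leaf, other pseudocounts and other block thresholds. The fit with the id1 and B73 libraries alone left 1 residual degree of freedom, so a call made only there is not stronger evidence than the main fit. Intervals on reads are exact (Clopper-Pearson).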

Additional observations from a re-analysis of the deposited data

Results flagged for a closer look

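The leaf to root difference of id1 departed from that of id4, 9d9a and B73, by the test of the id1-by-root term, in 2 windows. At 224.1 Mb of chromosome 2 the term was 1.30 on the log2 scale, with 272 and 939 reads in id1 leaf and root, against 2116 and 1857 reads in B73. At 44.1 Mb of chromosome 9 it was 1.58, id1 root being higher than id1 leaf (190 against 59.8 CPM), while B73 differed little between root and leaf (59.2 against 51.3 CPM). Each value rests on 1 id1 library per tissue.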

How the results depend on the processing

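The tissue term pairs leaf with leaf and root with root; the labels give no replicate numbers, so no other pairing was fitted. Of windows higher in id1 than B73 there were 395, with 248 by DESeq2, 1032 with only the 4 id1 and B73 libraries, 71 with no tissue term and 177 to 414 with 1 library left out. The 729 lower windows became 1205, 398 and 568 to 743 with 4 libraries, no tissue term and 1 library left out. Against the mean of id4 and 9d9a, 822 higher windows became 176 with no tissue term and 377 to 913 with 1 library left out, the extremes below 500 being 447 without id1 leaf and 377 without id1 root, and the 758 lower windows became 345 with no tissue term and 511 to 819 with 1 library left out. In the segment, 23 higher windows became 15 with no tissue term and 23 or 24 in every other alternative run. Elsewhere the 358 higher windows became 214 by DESeq2, 993 with 4 libraries, 51 with no tissue term and 142 to 378 with 1 library left out, and the 367 lower ones 816, 135 and 241 to 382 with 4 libraries, no tissue term and 1 library left out. The cause of these shifts was not tested. Some of the fits also held fewer libraries.

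Total block length was 34 Mb at a threshold of -0.7, 61 Mb at -0.3, 58 Mb with 2 Mb intervals and 48 or 49 Mb otherwise, on chromosomes 1, 2 and 10 throughout. Of 147 regional medians recomputed, 145 stayed within the interval from ranks of the main median. The root median from 76 to 87 Mb of chromosome 1 was -1.84 with a pseudocount of 0.25, outside its interval of -1.81 to -1.16. That of chromosome 5 was -0.00722 with library totals, outside its interval of -0.0258 to -0.00826. Of 90 windows followed through the alternatives, which were the named ones and, added after the data were seen, the tested windows within 0.5 Mb of the segment and the most-read one, 79 were called, and none of these changed sign; of the 11 uncalled, 1 did. In some alternative 18 calls were lost and 8 gained. With no tissue term alone, 10 were lost on chromosome 1 (29.4, 48.4, 48.9, 49.1, 49.3, 49.8, 49.9, 50.2, 50.7 and 51.3 Mb) and 1 on chromosome 5 (13.6 Mb). The others lost were on chromosome 7 at 150 Mb (without B73 leaf, B73 root, id4 leaf or id4 root, adjusted p up to 0.314), chromosome 10 at 143.8 Mb, chromosome 2 at 226.9 Mb, chromosome 3 at 73.8 Mb, chromosome 6 at 12.2 Mb, and chromosome 1 at 47.9 Mb and base 48100001. Depth limits windows with few reads, and 1 library per line and tissue limits every call.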

Other observations

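In intervals of 5 Mb, some stretches changed little in size but in many windows; those given here were picked after their values were seen. Over all windows tested, 1.94% rose and 3.58% fell against B73, and 4.03% rose and 3.72% fell against the mean of id4 and 9d9a. From 280 to 285 Mb of chromosome 1, 16 of 49 tested windows rose in id1 against B73 and none fell, with medians of 0.36 in leaf and 0.28 in root for id1, 0.41 and 0.21 for id4, and 0.35 and 0.25 for 9d9a. Against the mean of id4 and 9d9a, 2 of these windows rose and 1 fell. From 145 to 150 Mb of chromosome 6, 14 of 50 windows rose against B73 and none fell, with medians of 0.30 and 0.18 in id1, 0.32 and 0.17 in id4, and 0.29 and 0.25 in 9d9a. The ratios of all 3 lines share the B73 libraries.

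The 2 intervals before it had id1 below the other lines. From 135 to 140 Mb of chromosome 6 the median ratio was -0.23 in leaf and -0.25 in root for id1, against 0.26 and 0.17 for id4 and 0.31 and 0.23 for 9d9a. Of its 50 windows, 8 fell and none rose in id1 against B73, while 27 fell and none rose against the mean of id4 and 9d9a, with a median difference of -0.48. From 140 to 145 Mb the medians were -0.07 and -0.15 for id1, 0.22 and 0.16 for id4, and 0.27 and 0.22 for 9d9a; 3 windows rose and 8 fell against B73, and 1 rose and 21 fell against the mean of id4 and 9d9a.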
